A study of Homo sapiens with 4 samples.

Results

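The genes described here were 58 protein-coding genes of the short arm of human chromosome 3 (3p), followed in PANC-1, a line from a human pancreatic adenocarcinoma, and in its derived clone PZT-2. The 58 were named in a list, and the list was selected on measured values of the comparison made here, because genes of this arm stood higher as a block in PZT-2. For SATB1 and OXSM the table used here gave no value. The other 56 passed the filter on low counts, out of 15072 tested genes in all, of which 403 lay on 3p. PANC-1 was the untransduced, wild-type line. PZT-2 had received lentiviral short hairpin RNAs against the histone variant H2A.Z, aimed at the H2A.Z.1 gene and at both isoforms of H2A.Z.2, and it is 1 clone. Each line was represented by 2 RNA-seq libraries, made from cells at the same passages and in the same medium. Since there was 1 clone and no other transduced line is analysed here, the knockdown and the choice of the clone cannot be told apart, and DNA copy number was not measured.

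The short arm of chromosome 3 carries genes of many unrelated roles, and it is best known in cancer as an arm that is often lost in kidney and lung tumours. Genes that share an arm need not share a pathway or a regulator, so a common shift in RNA level along an arm is usually described by its size, by its limits and by how closely single genes follow it. The member list spans DNA repair enzymes, ubiquitin ligases, coat proteins of transport vesicles and the Wnt effector beta-catenin.

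The 4 libraries held between 12861490 and 15717575 estimated counts. The knockdown target H2AFZ, which encodes H2A.Z.1, had 6386 and 6032 normalized counts in PANC-1 and 2211 and 2258 in PZT-2, and was lower in PZT-2 by edgeR's quasi-likelihood test (log2 fold change -1.47 ± 0.06 SE, Benjamini-Hochberg adjusted p = 6.25e-05). H2AFV, which encodes H2A.Z.2, had 3343 and 3451 against 2588 and 2716 (log2 fold change -0.36 ± 0.06 SE, adjusted p = 0.00565, edgeR). Epithelial keratins KRT8, KRT18 and KRT19 were present in every library at 1141 TPM (transcript abundance scaled for length and library size) or more, with KRT8 at 3128 and 3077 TPM in PANC-1 and 1385 and 1344 in PZT-2, and the ductal keratin KRT7 stood at 7.94 to 11.0 TPM. The mesenchymal marker VIM stood above the keratins in every library, at 6397 and 6340 TPM in PANC-1 and 4585 and 4474 in PZT-2. Of 4 markers of blood, endothelium and fibroblasts, PTPRC of leukocytes and DCN of fibroblasts had no value. PECAM1 of endothelium had at most 0.236 TPM, and COL1A1 of fibroblasts had 10.5 and 11.4 TPM in PANC-1 against 3.61 and 2.86 in PZT-2. Nothing in the labels says that the libraries of a line came from separate cultures. The paper calls them biological replicates without describing the cultures. The p-values here measure the spread between libraries, which may be technical.

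To see how large and how even the shift was, the log2 fold change of each gene, PZT-2 over PANC-1, was taken from 1 fit across all genes. A gene was called where its Benjamini-Hochberg adjusted p over all genes in edgeR's quasi-likelihood test was under 0.05. The 56 members had a median log2 fold change of 0.58, which is a 1.5-fold higher level in PZT-2. In bulk RNA a higher level in every cell and a larger share of cells with a high level cannot be told apart. Their quartiles were 0.32 and 0.92, and they ran from -0.44 for RFTN1 to 1.31 for EDEM1. Of the 56, 54 lay above 0. The fit called 38 members higher in PZT-2 and 0 lower, with 18 not called, and it put 0 below 0 at an unadjusted p under 0.05, as did DESeq2 and limma, while over all tested genes 14.7% were called higher and 13.7% lower. Both PZT-2 libraries stood above both PANC-1 libraries in 51 members, where 33.4% of all genes did, and below them in 1 member, where 33% of all genes did. The other 4 members overlapped between the lines. Because the list was chosen by this contrast, these counts describe the choice and carry no test.

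**Figure D1:**
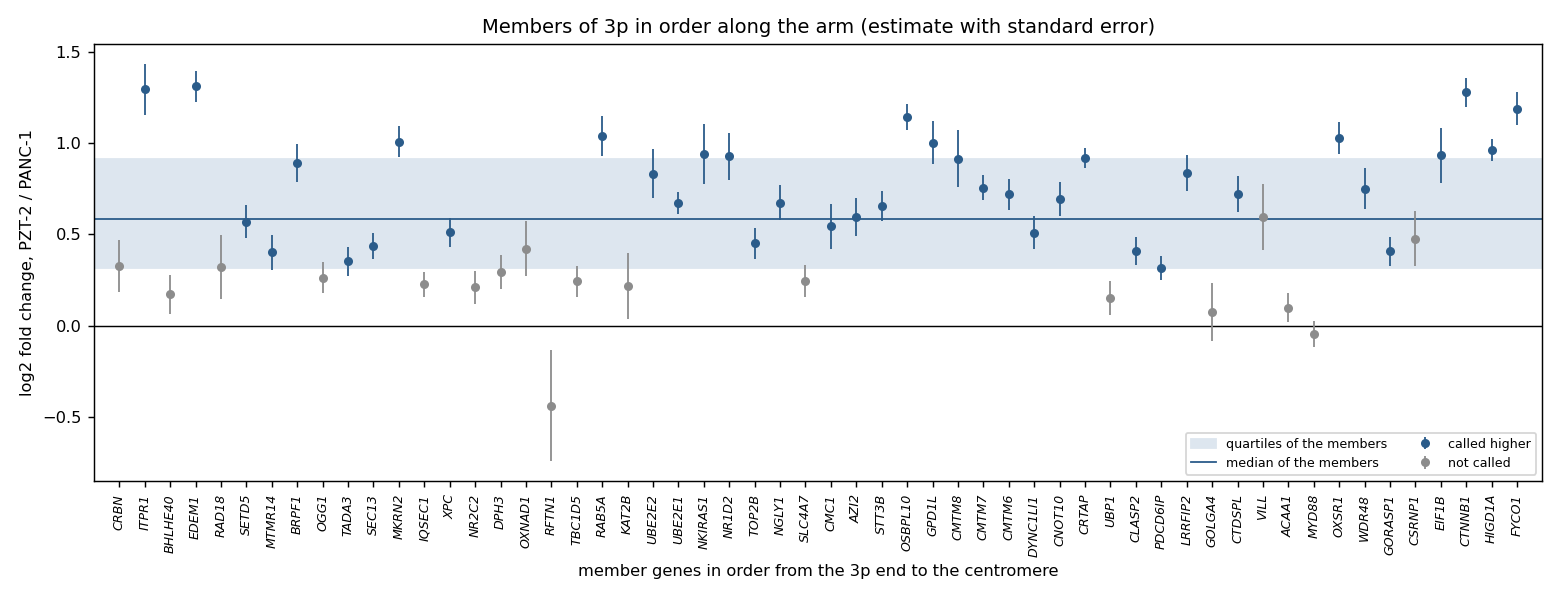
Log2 fold change of the 56 members (points) with the standard error of the fit (bars), in order from the end of 3p to the centromere. The line is the members' median of 0.58 and the band runs from 0.32 to 0.92. High and low members, such as EDEM1 at 1.31 and MYD88 at -0.05, are mixed along the arm, with some stretches of similar values. RFTN1 lies lowest.

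The shift was present in every pairing of libraries. Each PZT-2 library set against each PANC-1 library gave a median of 0.56 to 0.63 over the members, with 52 to 54 of 56 above 0. Between the 2 libraries of PANC-1 the median difference was -0.0045, and between those of PZT-2 it was 0.03. The interquartile range over members was 0.52 to 0.59 between the lines, and 0.29 and 0.18 within PANC-1 and within PZT-2.

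**Figure D2:**
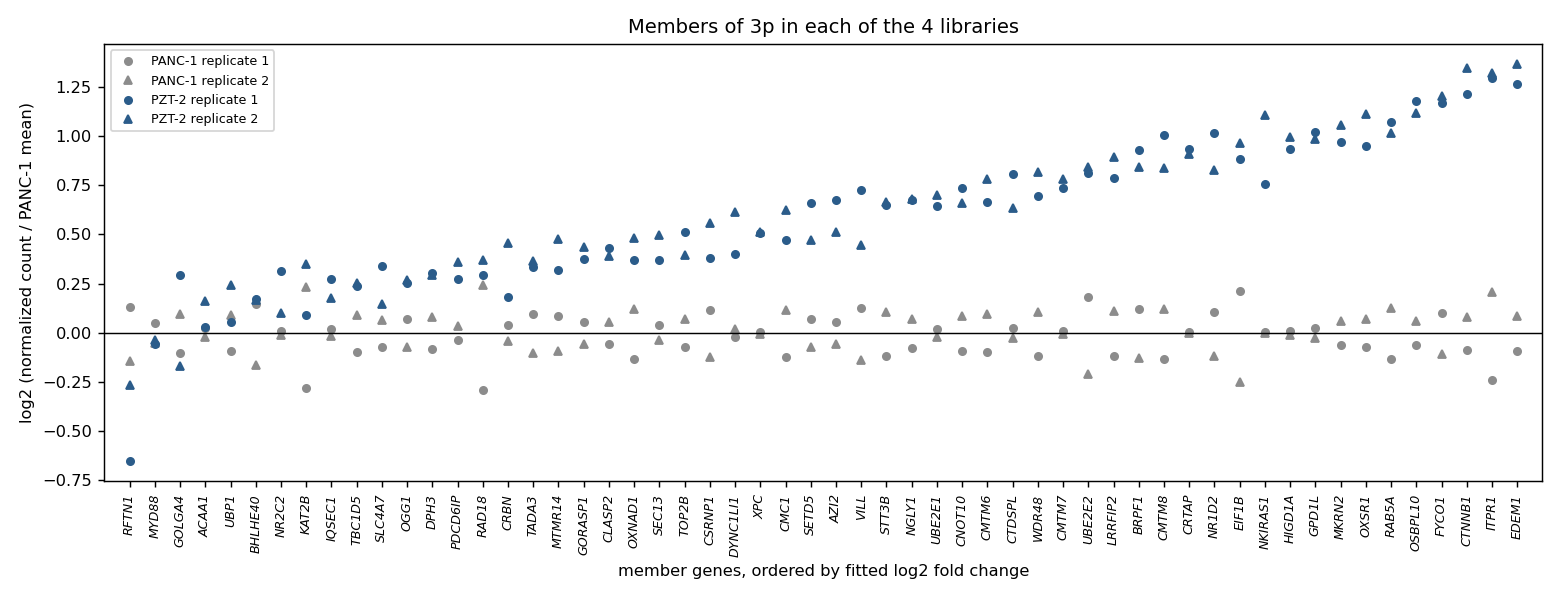
Normalized count of each member in each library, as log2 of its ratio to the mean of the 2 PANC-1 libraries, with members ordered by fitted log2 fold change. Grey marks are PANC-1 and blue marks are PZT-2, with circles for replicate 1 and triangles for replicate 2. In 51 members both blue marks lie above both grey marks, and in RFTN1 both lie below.

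The shift was not even from gene to gene. The SD of the log2 fold change over members was 0.37, against a root mean square standard error of 0.11, which leaves an SD of 0.35 beyond that error. Only 21 of the 56 members lay within 0.2 of the median, and 41 lay within 0.4. The median lay within 2 standard errors of 20 members, 18 lay more than 2 standard errors above it, and 18 lay more than 2 below. At least a doubling, a log2 fold change of 1 or more, was measured for 9 members, and 13 members stood under 0.3. The order of the members was similar in separate library pairs. The differences of replicate 1 and those of replicate 2, which share no library, had a Pearson r of 0.79 and a Spearman rho of 0.83 over the 56 members, and the crossed pairs gave 0.77 and 0.77. These values are over genes measured in the same 4 libraries and carry no test.

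The 5 members with the largest shift encode proteins of unlike function. EDEM1, which sends misfolded glycoproteins of the endoplasmic reticulum to degradation, had 544 and 617 normalized counts in PANC-1 and 1393 and 1496 in PZT-2 (log2 fold change 1.31 ± 0.08 SE). ITPR1, a receptor that releases calcium from the endoplasmic reticulum, had 214 and 291 against 619 and 629 (1.30 ± 0.14 SE). CTNNB1, which encodes beta-catenin, had 2014 and 2263 against 4956 and 5429 (1.28 ± 0.08 SE). In all 3 the lines were well apart, and the lower PZT-2 library held at least 2 times the counts of the higher PANC-1 library. FYCO1, an adaptor that moves autophagosomes along microtubules, had 385 and 333 against 807 and 826 (1.19 ± 0.09 SE). OSBPL10, an oxysterol-binding protein family member, had 573 and 622 against 1351 and 1293 (1.14 ± 0.07 SE). Neither of these overlapped between the lines.

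The 5 members lowest in log2 fold change had nearly the same level in both lines or, in 1 case, a lower one in PZT-2 that was not called. RFTN1, a lipid raft protein, had 41.6 and 34.3 normalized counts in PANC-1 and 24.1 and 31.6 in PZT-2 (log2 fold change -0.44 ± 0.30 SE). It was the only member with a mean under 100 counts and the only one whose PZT-2 libraries were both below PANC-1. MYD88, the adaptor of Toll-like and interleukin-1 receptors, had 759 and 709 against 705 and 716 (-0.05 ± 0.07 SE). GOLGA4, a golgin of the trans-Golgi network, had 452 and 518 against 594 and 431 (0.08 ± 0.16 SE). The lines overlapped for both, and the PZT-2 libraries of GOLGA4 lay further apart than the means of the lines. ACAA1, a peroxisomal thiolase of fatty acid oxidation, had 650.1 and 630 against 652 and 717 (0.10 ± 0.08 SE). UBP1, a transcription factor, had 948 and 1077 against 1052 and 1198 (0.15 ± 0.09 SE). For ACAA1 the lower PZT-2 library was just above the higher PANC-1 library, and for UBP1 the lines overlapped.

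Members near the median show what the typical shift looks like. SETD5, a SET-domain chromatin protein, had 966 and 877 normalized counts in PANC-1 and 1456 and 1279 in PZT-2 (log2 fold change 0.57 ± 0.09 SE). AZI2, an adaptor of the kinase TBK1, had 260 and 241 against 399 and 357 (0.60 ± 0.11 SE). VILL, a villin-like protein, had 91.1 and 75.9 against 138 and 114 (0.60 ± 0.18 SE). The lines were apart in each of them. CMC1, a factor for assembly of cytochrome c oxidase, had 207 and 244 against 313 and 347 (0.54 ± 0.12 SE). XPC, the damage sensor of nucleotide excision repair, had 344 and 342 against 488 and 489 (0.51 ± 0.08 SE). The libraries of XPC lay closer together within each line than those of the other 4.

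On the TPM scale, which accounts for transcript length, the mean level of members ran from 1.63 TPM for RFTN1 to 105 TPM for SEC13 in PANC-1, and from 1.18 TPM for RFTN1 to 196 TPM for CTNNB1 in PZT-2. The median level was 15.9 TPM in PANC-1 and 27.6 TPM in PZT-2. CTNNB1 had 75.8 and 86.2 TPM in PANC-1 and 187 and 205 in PZT-2. SEC13, a coat protein of vesicles leaving the endoplasmic reticulum, had 107 and 102 against 135 and 147 TPM. TADA3, an adaptor of the SAGA acetyltransferase complex, had 110 and 96.0 against 128 and 130 TPM. So SEC13 and TADA3 stood above CTNNB1 in PANC-1 and below it in PZT-2. UBE2E1, a ubiquitin-conjugating enzyme, had 78.5 and 78.0 against 120 and 125 TPM. CMTM7, a MARVEL-domain membrane protein, had 63.7 and 63.4 against 105 and 108 TPM. All 5 of these most abundant members were higher in both PZT-2 libraries.

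Members of low and high counts had similar shifts. Split into 3 sets by mean count, the members had a median log2 fold change of 0.60 in the lowest set (n = 19), 0.51 in the middle set (n = 19) and 0.61 in the top set (n = 18). Split into 4 sets by order along the arm, the members nearest the end, from CRBN to XPC, had a median of 0.42 (n = 14), and the next, from NR2C2 to SLC4A7, 0.44 (n = 14). The set after it, from CMC1 to PDCD6IP, had 0.68 (n = 14) and the last, from LRRFIP2 to FYCO1, 0.74 (n = 14). The SD of single members within these 4 sets was 0.27 to 0.42. Members with 1 transcript in the table had a median of 0.83 (n = 21), and those with 2 or more had 0.45 (n = 35). None of these splits was tested.

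Neighbouring members were somewhat closer to each other than all pairs of members were, and some differed widely. Over the 55 pairs of members that follow each other in the list, the median absolute difference in log2 fold change was 0.30, against 0.36 over all 1540 pairs of members, and 17 neighbouring pairs differed by 0.5 or more. With the 281 tested genes of 3p that had a mean of at least 100 counts, the same measure was 0.31 for adjacent genes and 0.31 for all pairs. BHLHE40, a circadian basic helix-loop-helix repressor, had 896 and 723 normalized counts in PANC-1 and 910.4 and 908 in PZT-2 (log2 fold change 0.17), while EDEM1, with 1 tested gene between them, stood at 1.31, a difference of 1.14 ± 0.14 (SE). MYD88 at -0.05 and OXSR1 at 1.03, next to each other with no tested gene between them, differed by 1.08 ± 0.11 (SE). OXSR1, a kinase of the WNK pathway that controls ion transport, had 568 and 627 against 1155 and 1291 normalized counts, with the lines apart. RAB5A lay at 1.04 between TBC1D5 at 0.24 and KAT2B at 0.22. Some neighbours were alike, such as NKIRAS1 at 0.94 and NR1D2 at 0.93, or CMTM7 at 0.76 and CMTM6 at 0.72.

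The promoters of BHLHE40 and EDEM1 and of MYD88 and OXSR1 are shown because these 2 pairs of neighbours hold members from both ends of the range. Each window runs from 250 bases before to 50 bases after the start of the gene in RefSeq on GRCh38.p14, with the first start listed for each gene, all on the plus strand and written 5′ to 3′, with CpG dinucleotides in capitals. The windows are BHLHE40 at chr3:4979187-4979486, EDEM1 at chr3:5187457-5187756, MYD88 at chr3:38138411-38138710 and OXSR1 at chr3:38165287-38165586.
BHLHE40: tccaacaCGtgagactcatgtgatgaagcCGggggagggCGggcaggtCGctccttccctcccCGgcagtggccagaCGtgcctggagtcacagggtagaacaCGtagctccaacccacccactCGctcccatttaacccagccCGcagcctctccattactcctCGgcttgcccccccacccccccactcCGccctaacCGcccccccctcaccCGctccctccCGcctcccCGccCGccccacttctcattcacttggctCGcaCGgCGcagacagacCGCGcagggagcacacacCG
EDEM1: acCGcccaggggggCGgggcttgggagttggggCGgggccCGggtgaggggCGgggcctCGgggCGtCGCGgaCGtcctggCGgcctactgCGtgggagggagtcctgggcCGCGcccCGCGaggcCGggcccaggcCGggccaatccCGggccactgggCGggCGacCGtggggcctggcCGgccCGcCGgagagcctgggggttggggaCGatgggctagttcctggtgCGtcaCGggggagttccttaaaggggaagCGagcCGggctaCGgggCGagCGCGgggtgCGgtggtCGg
MYD88: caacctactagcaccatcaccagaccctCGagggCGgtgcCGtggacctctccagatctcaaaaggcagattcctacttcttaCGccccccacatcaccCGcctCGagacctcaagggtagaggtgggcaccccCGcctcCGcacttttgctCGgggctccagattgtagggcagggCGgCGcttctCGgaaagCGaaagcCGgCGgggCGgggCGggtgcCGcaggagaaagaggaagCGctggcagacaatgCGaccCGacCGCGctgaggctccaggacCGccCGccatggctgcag
OXSR1: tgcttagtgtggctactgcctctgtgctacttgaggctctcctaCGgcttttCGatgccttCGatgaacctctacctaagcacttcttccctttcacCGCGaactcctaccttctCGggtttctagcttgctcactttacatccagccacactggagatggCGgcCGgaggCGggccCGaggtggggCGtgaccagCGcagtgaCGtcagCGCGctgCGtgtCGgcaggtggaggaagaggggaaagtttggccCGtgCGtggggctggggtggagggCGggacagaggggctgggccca
The window of EDEM1 held 36 CpG dinucleotides, that of BHLHE40 22, that of MYD88 25 and that of OXSR1 20, so the high and the low member of a pair were not set apart in 1 direction by this count. All 4 held the GC box GGGCGG on either strand, and CACGTG was found only in BHLHE40 and CCAAT only in EDEM1 among them. Windows were found for 52 of the 58 members. SATB1 was among these, and MKRN2, ACAA1, GOLGA4, CTDSPL, STT3B and OXSM were not. The median CpG count was 29 in the members' windows, with a range of 1 to 53, and 14 in all 27305 windows of the same length. The set of all windows was not limited to tested genes, and no set matched for level or gene type was compared. The GC box was in 75% of the members' windows and in 44.6% of all, CCAAT in 26.9% and 35.7%, the E-box CACGTG in 9.62% and 7.43%, and TATAAA in 1.92% and 12%, each searched on both strands. The CpG count was hardly related to the shift over the 51 members with both values (Pearson r = -0.07, Spearman rho = -0.10, given as a description), and 3 sets of 17 members by CpG count had medians of 0.60, 0.57 and 0.51 from the lowest count to the highest.

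Of all 56 members 38 were called higher, against 14.7% of all tested genes. Since this contrast chose the members, counts of calls by role are a description only. By role, the ubiquitin and glycoprotein group had a median log2 fold change of 0.75, with 8 of 9 members called higher. EDEM1 led it at 1.31. MKRN2, a RING-type ubiquitin ligase, stood at 1.01. CRTAP, which helps to hydroxylate prolines of collagen, stood at 0.92, with 2221 and 2214 normalized counts in PANC-1 and 4233 and 4154 in PZT-2. It had the smallest standard error of all members, 0.05. UBE2E2, a ubiquitin-conjugating enzyme, was at 0.83, and WDR48, a cofactor of the deubiquitinase USP1, at 0.75. UBE2E1 and NGLY1, the cytosolic glycanase that strips sugars from misfolded proteins, were both at 0.67. STT3B, a catalytic subunit of oligosaccharyltransferase, was at 0.66. CRBN, the substrate receptor of a cullin ubiquitin ligase and the target of thalidomide, was the one not called, at 0.33 ± 0.14 (SE).

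Signalling and membrane proteins had a median of 0.76, with 10 of 13 called higher. ITPR1 at 1.30, CTNNB1 at 1.28 and OXSR1 at 1.03 led, and MYD88 was lowest at -0.05. NKIRAS1, an inhibitor of NF-kappa-B signalling, was at 0.94, and LRRFIP2, a leucine-rich repeat protein that binds Flightless, at 0.84. The CMTM genes lie side by side on the arm and encode MARVEL-domain membrane proteins. CMTM8 was at 0.92, CMTM7 at 0.76 and CMTM6, which stabilises PD-L1 at the cell surface, at 0.72. CTDSPL, a phosphatase, was at 0.72. VILL and AZI2 were both at 0.60, and SLC4A7, a sodium bicarbonate transporter, at 0.24, with VILL, SLC4A7 and MYD88 not called.

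Membrane traffic and cytoskeleton genes had a median of 0.41, with 9 of 13 called higher, with an SD of 0.45 and an interquartile range of 0.27. FYCO1 at 1.19, OSBPL10 at 1.14 and RAB5A, the GTPase of early endosomes, at 1.04 stood far above the rest of the group. DYNC1LI1, a light intermediate chain of dynein, was at 0.51 and SEC13 at 0.44. CLASP2, which binds growing microtubule ends, and GORASP1, a Golgi stacking protein, were both at 0.41, and MTMR14, a phosphoinositide phosphatase, was at 0.40. PDCD6IP, also called ALIX and part of the ESCRT pathway, was at 0.32. TBC1D5, a retromer-associated regulator of RAB GTPases, was at 0.24 and IQSEC1, an ARF exchange factor, at 0.23. These 2, GOLGA4 at 0.08 and RFTN1 at -0.44 were not called.

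Chromatin and transcription genes had a median of 0.40, with 5 of 10 called higher. NR1D2, the nuclear receptor REV-ERB beta of the circadian clock, was at 0.93 and BRPF1, a scaffold of histone acetyltransferase complexes, at 0.89. SETD5 was at 0.57. TOP2B, the DNA topoisomerase II that non-dividing cells also use, was at 0.45 and TADA3 at 0.35. The 5 not called were CSRNP1, a nuclear protein, at 0.48, KAT2B, an acetyltransferase, at 0.22, NR2C2, an orphan nuclear receptor, at 0.21, BHLHE40 at 0.17 and UBP1 at 0.15. KAT2B had 222 and 316 normalized counts in PANC-1 and 287 and 343 in PZT-2, so its lines overlapped.

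The 3 DNA repair genes had a median of 0.32, with XPC called higher at 0.51. RAD18, a ubiquitin ligase of post-replication repair, was at 0.32 and OGG1, the glycosylase for oxidized guanine, at 0.26. Of the 3 RNA and translation genes, EIF1B, a close relative of the initiation factor EIF1, was at 0.93 and CNOT10, a subunit of the CCR4-NOT deadenylase, at 0.69, both called higher. DPH3, which acts in diphthamide synthesis, was at 0.29. Among 5 genes of mitochondria and metabolism, GPD1L, a glycerol phosphate dehydrogenase-like protein, was at 1.00, HIGD1A, a hypoxia-inducible mitochondrial protein, at 0.96 and CMC1 at 0.54, all called higher. OXNAD1, an oxidoreductase, was at 0.42 and ACAA1 at 0.10. The roles overlapped widely in their values, and no difference between them was tested.

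**Figure D3:**
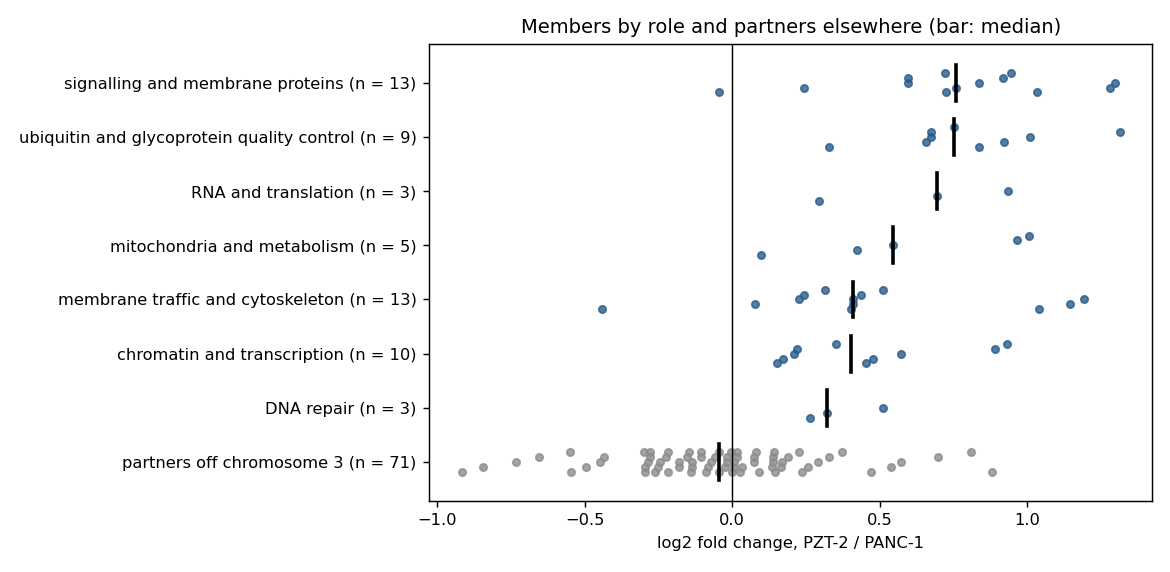
Log2 fold change of each member (blue points) by role group, with the group median as a black bar, and of 71 partner genes on other chromosomes (grey points). Group medians run from 0.32 for DNA repair to 0.76 for signalling and membrane proteins, and the partners centre on -0.04.

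Genes whose products work with the members but that lie on other chromosomes did not share the shift as a set. The partner list held subunits of the same complexes and close paralogs, as 74 symbols for 26 members, and 71 had a value. Of the symbols without a value, RQCD1 and CCDC101 are older names of CNOT9 and SGF29, which were measured. The measured partners had a median log2 fold change of -0.04, with quartiles of -0.23 and 0.14, while the 26 members had a median of 0.68. This contrast chose the members and not the partners, so the gap between them carries no test. The partner list was drawn up with earlier results of these data known. By edgeR's test over all genes, 9 partners were higher in PZT-2, 12 were lower and 50 did not pass. Over all tested genes 14.7% were called higher and 13.7% lower, so these counts are not read as a result about the partners. None of the 10 measured CCR4-NOT partners of CNOT10 passed upwards, 1 of them, CNOT9, was called lower at -0.24, and their median was -0.07. The 7 measured dynein partners of DYNC1LI1 had a median of 0.07 with none called. For STT3B at 0.66, its paralog STT3A was called lower at -0.22, as was MAGT1 at -0.29, and the subunit OST4 was called higher at 0.57. TOP2B at 0.45 stood against TOP2A, the paralog of dividing cells, at -0.73, called lower. RAB5A at 1.04 stood against RAB5B at -0.30, called lower, and RAB5C at 0.14, not called. The other partners called higher included NR1D1 at 0.88 beside NR1D2 at 0.93, and STK39 at 0.37 beside OXSR1 at 1.03. Of the 9 measured coat partners of SEC13, SEC23A at 0.54, SEC24D at 0.47 and SAR1A at 0.29 were called higher and none lower. SUPT7L, a SAGA subunit like TADA3, was called higher at 0.81, while SGF29 in the same partner group was called lower at -0.84. MEAF6, which works with BRPF1, was called higher at 0.70, while KAT6A at -0.43 and KAT6B at -0.28 were not called. CETN2, a partner of XPC, was called lower at -0.55, as was NR2C1 at -0.45 beside NR2C2 at 0.21. For ITPR1, ITPR3 was called higher at 0.33 and ITPR2 was at -0.05, not called. For CTNNB1, JUP, the related plakoglobin, was called lower at -0.55, while CTNNA1 was at 0.08 and CTNND1 at -0.09, both not called. The 4 values of MYD88 partners and CRBN partners furthest from 0 were negative. They were CUL4B at -0.92, IRAK1 at -0.65, IRAK4 at -0.50 and RBX1 at -0.26, of which IRAK4 was not called. Some partners lie on chromosomes whose own median was away from 0. SUPT7L, OST4 and STK39 lie on chromosome 2, with a median of 0.12, as does CNOT9, called lower. CUL4B, IRAK1, MAGT1 and CETN2 lie on the X chromosome, with a median of -0.29. Whether this bears on their values was not tested.

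The members were not alone on the chromosome. The arm was chosen because it stood higher in this contrast, so the values of 3p are a description and carry no test. Over all tested genes 14.7% were called higher and 13.7% lower. The other 347 tested genes of 3p had a median log2 fold change of 0.44, with 170 (49.0%) called higher and 9 (2.59%) lower. Among them, the 136 that lie between the first and the last member had 0.54, and the 209 between FYCO1 and the centromere had 0.39. The long arm had a median of 0.40 over 430 genes, with 196 (45.6%) called higher and 12 (2.79%) lower. The shift thus did not stop at the centromere. Chromosome 3 as a whole had 0.43 over 833 genes and was the highest of 23 chromosomes. The other autosomes ran from -0.13 to 0.24, and genes not placed on chromosome 3 had a median of -0.01. Just outside the list, TRNT1, the last tested gene before CRBN, was at 0.47 (SE 0.16) with CRBN itself at 0.33. LRRC2, the first tested gene after FYCO1, was at 0.05 (SE 0.43) with a mean of only 14.7 counts.

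**Figure D4:**
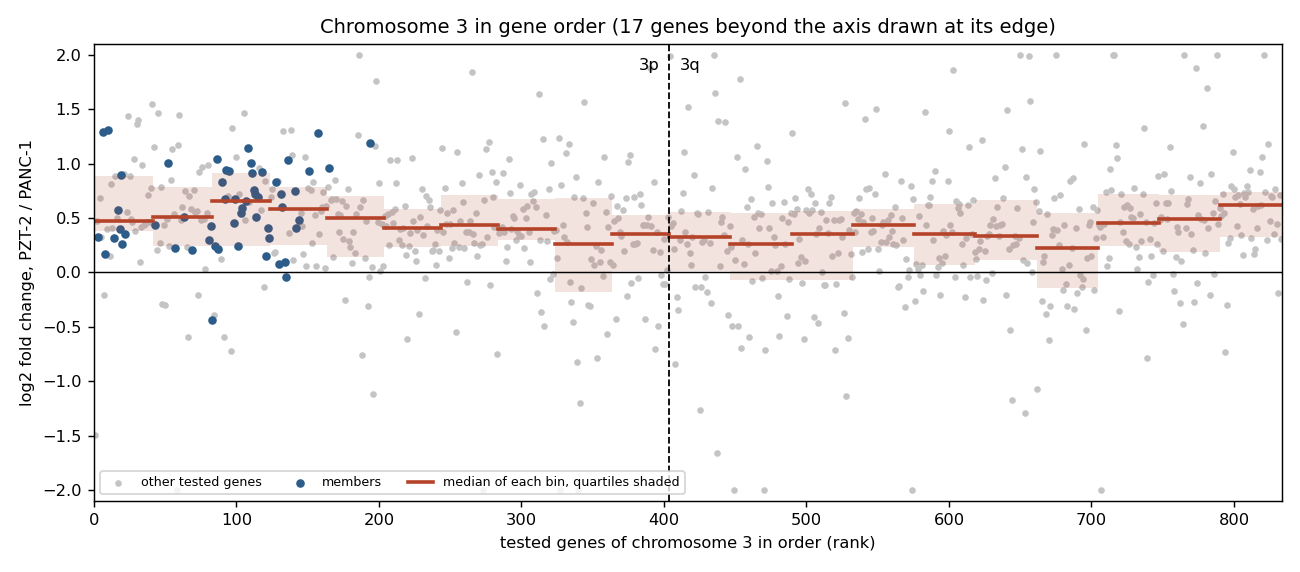
Log2 fold change of the 833 tested genes of chromosome 3 in order along it, with the members in blue and the others in grey. Red lines are medians of 10 bins of genes per arm, shaded to their quartiles, and the dashed line divides 3p from 3q. All 20 bin medians lie above 0, between 0.23 and 0.66, and 17 genes beyond 2 in either direction are drawn at the edge.

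Along the chromosome the level of the shift varied while every bin median stayed above 0. On 3p the medians of 10 bins of about 40 genes were 0.47, 0.51, 0.66, 0.58 and 0.50 over the part that holds the members, and 0.40, 0.43, 0.40, 0.26 and 0.35 towards the centromere. The third bin, which runs through the stretch of RFTN1, RAB5A, NR1D2 and OSBPL10, was the highest of the 20, and 25 of its 41 genes were members. Without the members its median was 0.61. On 3q the lowest bin had 0.23 and the last bin, at the end of the long arm, had 0.62, close to the bins that hold the members.

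Compared with their neighbours the members had a similar centre, and the order of the spreads depended on the measure. Among genes with a mean of at least 100 counts, 55 members had a median of 0.60, an interquartile range of 0.59 and an SD of 0.35. The 84 other genes between the first and the last member had a median of 0.54, an interquartile range of 0.37 and an SD of 0.54. The 141 genes from FYCO1 to the centromere had 0.40, 0.38 and 0.33, and genes not placed on chromosome 3 had -0.02, 0.44 and 0.49 (n = 9470). The members thus had the widest interquartile range of these 4 sets, while the SD was larger in the genes among them and in genes elsewhere. The root mean square standard error was 0.10 to 0.11 in each of these sets. These are descriptions, since the same contrast chose the members.

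**Figure D5:**
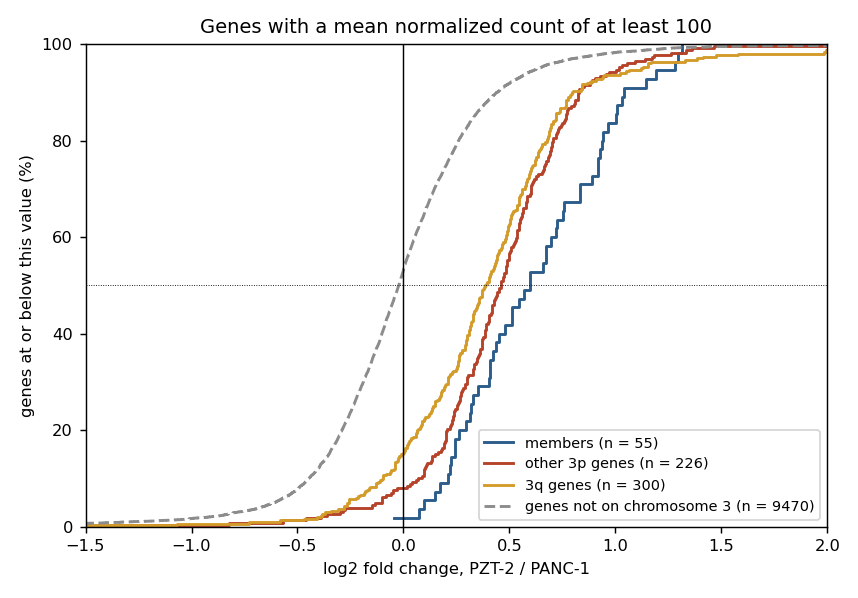
Percent of genes at or below each log2 fold change, for genes whose normalized counts averaged 100 or more. The curve of the 55 members (blue) crosses 50% at 0.60, that of 226 other 3p genes (red) at 0.46, that of 300 genes of 3q (yellow) at 0.39 and that of 9470 genes elsewhere (grey, dashed) at -0.02.

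A measure that the choice of members did not use is the share of each transcript within its gene. Of the members, 35 had 2 or more transcripts to compare, and edgeR's test of transcript usage called 0 of them, while over 6929 genes it called 0.101%. At an unadjusted p under 0.05 there were 2 members, 5.71% of them, against 5.77% of all genes. The direction of single transcripts is not such a measure, since it carries the shift of the gene totals that chose the members. Among 19 members with at least 2 transcripts of a mean of 100 counts or more, every such transcript was above 0 in 15. The median range of log2 fold change within a gene was 0.39. CTNNB1 had 3 such transcripts, at 0.83, 1.36 and 1.51. SLC4A7, with a gene total at 0.24, had the widest range, from -1.26 to 0.95, and is shown because of it. Its transcript NM_001258379 took 43.5% and 36.4% of all SLC4A7 counts in the PANC-1 libraries and 63.9% and 65.9% in PZT-2, and NM_001321108 made up 46.8% and 50.7% against 17.0% and 17.4%. The lines were apart for both transcripts, but the gene did not pass the test over all genes (adjusted p = 0.354, edgeR). The split of reads between transcripts is an estimate of kallisto, and this test found few differences in any gene, so it limits what can be said of the members.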

How the data were processed

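RNA-seq was read for 2 libraries of PANC-1 and 2 of PZT-2. Per the submitters' processing notes, reads were trimmed with Trim Galore 0.4.1, transcripts were quantified with kallisto 0.43.0 and lines were compared with sleuth 0.29.0, and hg19 is the build named. The authors deposited an estimated count and a TPM value per transcript and library. TPM was used as deposited and summed per gene. A deposited table of the authors' own comparison (p-values, q-values and effects) was not used for its values.

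The deposited estimated counts carried 1 factor per library (1.16, 0.935, 1.03 and 1.01), which was undone here. Then 41.0% to 42.2% of values from 0.5 to 30 in genes with 1 transcript were whole to within 0.01, against 0.915% to 2.39% as deposited. The design had taken counts as deposited. Transcripts were summed to 15221 genes, 27049 by symbol and 3925 by accession, and 103 unnamed transcripts with 0.0466% of counts were left out. Sums were rounded, and every gene that reached 5 counts in 2 or more libraries was tested with edgeR 4.0.16 in R 4.3.3 (TMM factors, quasi-likelihood test, Benjamini-Hochberg adjustment, 0.05). Normalized counts are scaled to the mean library. The standard error is the fitted log2 fold change divided by the root of its F statistic. Transcript usage was tested with edgeR's diffSpliceDGE. Scripts were tested on simulated data.

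The order of genes comes from RefSeq on GRCh38.p14, not from hg19, and promoter windows from the same source.

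The members, the role groups and the partner list were chosen with earlier results of these data known. Every member is named with its log2 fold change, and counts or TPM in each library are given for the 5 members highest and lowest in log2 fold change, nearest the median and highest in mean TPM. Library values of BHLHE40, OXSR1, CRTAP, KAT2B and SLC4A7, and the partners named, were picked after their values were seen. With 2 libraries per line, no exact permutation test of a single gene was made.

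Alternatives were RLE factors, TMM factors without chromosome 3, DESeq2 1.42.0, no filter, at least 10 counts in all 4 libraries, limma 3.58.1 on log2(TPM + 1), the deposited scaling, the replicate number as a block, and each library left out.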

Additional observations from a re-analysis of the deposited data

How the results depend on the processing

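With 2 libraries per line, 1 clone and no measured copy number, the values describe these libraries. The members' median log2 fold change of 0.58 was 0.58 to 0.60 under RLE factors, TMM factors without chromosome 3, DESeq2, both filters and the deposited scaling, and it was 0.53 with limma on log2(TPM + 1). Leaving out 1 library gave 0.58 to 0.65. The interquartile range of 0.60 was 0.56 on log2(TPM + 1) and 0.50 to 0.60 with 1 library left out, lowest without PZT-2 replicate 1. The pseudocount of 1 compresses changes of low genes on that scale. The median of the other 3p genes, 0.44, was 0.46 with TMM factors without chromosome 3, 0.33 on log2(TPM + 1), and 0.43 to 0.47 with 1 library left out. The members called higher, 38, were 37 to 41 under the other settings and 29 to 42 with 1 library left out. Over all genes 4283 were called, and 1923 to 4463 with 1 library left out, the smaller counts being 2300 and 1923 when PZT-2 replicate 1 or 2 was the one left out. Without PANC-1 replicate 1, GOLGA4 (-0.02) and KAT2B (-0.0090) changed sign, and without PZT-2 replicate 1 GOLGA4 (-0.17) did. With 1 library left out GOLGA4 ran from -0.17 to 0.29 and KAT2B from -0.0090 to 0.50. The cause was not tested. H2AFV was at -0.39 to -0.32 with 1 library left out, and missed the threshold without PZT-2 replicate 1 (adjusted p = 0.0613, edgeR). H2AFZ stayed called in every setting. Usage calls among members stayed at 0 in each alternative run. No scaling moved the median of all genes by more than 0.021.

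The libraries of the lines share replicate numbers, but the labels give no pairing, and the correlation of the deviations of same-numbered libraries was -0.0182 over 15072 genes. With the replicate number as a block (the replicate block), the members' median was 0.58, 39 were called higher, and 3747 genes were called in all.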

Other observations

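Chromosome 3 was not the only chromosome with a median away from 0. Chromosome 15 had a median log2 fold change of 0.24 over 530 tested genes, with 145 called higher in PZT-2 and 19 lower, and chromosome 2 had 0.12 over 959 genes, with 239 higher and 89 lower. Chromosome 5 stood at -0.13 over 685 genes, with 58 higher and 134 lower. The X chromosome had the lowest median, -0.29 over 474 genes, with 30 higher and 170 lower. Over all tested genes 14.7% were called higher and 13.7% lower, and no chromosome was tested against another.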
